A study of Mus musculus with 19 samples.

Results

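Voltage-gated sodium and calcium channels were described in ribosome-bound mRNA of mouse spinal cord cholinergic neurons as 40 genes: the pore-forming sodium channel alpha subunits (10 genes), the sodium channel beta subunits (4), the calcium channel alpha1 subunits (Cacna1, 10), and the calcium channel alpha2delta (Cacna2d, 4), beta (Cacnb, 4) and gamma (Cacng, 8) subunits. They were taken by symbol from the 50559 genes of the count table, leaving out pseudogene and antisense names, by a rule that uses no measured value. All libraries came from male ChAT-Cre;RiboTag fx/+ mice on the C57BL/6J background, 10 weeks old and otherwise wild-type, kept in 12 h of light and 12 h of dark. ChAT-Cre is active in cells that express choline acetyltransferase, and there it switches on RiboTag, a hemagglutinin-tagged ribosomal protein, so that precipitating the tag recovers mRNA on the ribosomes of those cells. The precipitate therefore mixes motor neurons with the other cholinergic cells of the cord, and fewer cells of a type cannot be told apart from less RNA per cell. Cords were collected every 4 h at Zeitgeber time (ZT, hours after lights on) 0, 4, 8, 12, 16 and 20, with 3 immunoprecipitate (IP) libraries at each time point, 18 in all, and 1 library was made from pooled input. The labels call the input spinal cord cholinergic neurons, whereas by the methods of the study it is homogenate of the cord taken before precipitation.

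Sodium channel alpha subunits open on depolarization and carry the rising phase of the action potential, which motor neurons start at the axon initial segment and repeat at each node of Ranvier. Their beta subunits are small membrane proteins that change gating and help anchor the channel. Calcium channel alpha1 subunits form the pores of the L, P/Q, N, R and T types, which set firing patterns and, at nerve terminals, trigger transmitter release. The alpha2delta and beta subunits bring these pores to the membrane, and most gamma subunits are better known as auxiliary subunits of AMPA-type glutamate receptors.

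IP libraries held 6302150 to 22406844 counts and the input 15239792. Levels are given as CPM (counts scaled to library size by TMM) and, where genes are compared with each other, as CPM per kb of annotated exon. Cholinergic markers were higher in the precipitates, with 6 of 7 above the input in all 18 libraries and at least 2-fold above it on average, and their summed level was 4209 to 5027 CPM against 449 CPM in the input. Chat itself, which makes acetylcholine, was above the input in 17 of 18 libraries (8.31 to 84.9 CPM against 12.7 CPM). RNA of other cells was reduced but present: 7 oligodendrocyte markers summed to 1503 to 2876 CPM in the precipitates and 21282 CPM in the input. Of the 40 members, 36 passed the filter on low counts and were tested over time among 15572 genes, and 39 entered the comparison with the input among 17901 genes.

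Promoters of Scn8a, Scn1a and Cacng2 are shown first. Scn8a and Cacng2 were called over the day and moved in opposite directions. Scn1a passed no test over the whole day and only contrasts of single time points, in the direction of Cacng2. Cacna1g, which was called by a 24-h cosine fit, had no promoter among those used. RefSeq promoters on GRCm38.p6 run from 250 bases before to 50 bases after a start site, and 30 of the 40 members had 1 or more, 41 in all. They were searched on both strands for the clock E-box (CACGTG), the D-box (TTATGTAA) and the GC box (GGGCGG). None of the 41 held the E-box, against 7.15% of all 32851 promoters, 1 held the D-box (Scn1a) against 0.938%, and 16 held a GC box, which is 39% against 35.7%. Capitals mark a motif, so the sequences in lower case throughout hold none of the 3 within these windows. The sequences run 5′ to 3′ on the strand of the gene, with the upstream of the 2 Scn8a starts in this promoter set shown. The annotated genes Scn8a and Cacng2 begin further upstream, at chr15:100869863 and chr15:78120220, outside the windows shown.
Scn8a (chr15:100870395-100870694, plus strand): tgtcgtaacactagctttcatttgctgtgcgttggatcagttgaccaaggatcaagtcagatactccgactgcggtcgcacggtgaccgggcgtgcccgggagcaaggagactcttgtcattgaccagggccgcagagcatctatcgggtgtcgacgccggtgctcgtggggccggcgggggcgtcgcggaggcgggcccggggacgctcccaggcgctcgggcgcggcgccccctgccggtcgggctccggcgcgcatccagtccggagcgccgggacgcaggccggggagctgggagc
Scn1a (chr2:66440788-66441087, minus strand): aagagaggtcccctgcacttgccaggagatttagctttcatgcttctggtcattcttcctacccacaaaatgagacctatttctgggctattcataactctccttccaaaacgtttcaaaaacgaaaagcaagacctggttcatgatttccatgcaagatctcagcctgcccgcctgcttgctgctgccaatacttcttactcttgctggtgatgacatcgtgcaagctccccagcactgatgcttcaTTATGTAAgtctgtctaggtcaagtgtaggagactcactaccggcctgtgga
Cacng2 (chr15:78119231-78119530, minus strand): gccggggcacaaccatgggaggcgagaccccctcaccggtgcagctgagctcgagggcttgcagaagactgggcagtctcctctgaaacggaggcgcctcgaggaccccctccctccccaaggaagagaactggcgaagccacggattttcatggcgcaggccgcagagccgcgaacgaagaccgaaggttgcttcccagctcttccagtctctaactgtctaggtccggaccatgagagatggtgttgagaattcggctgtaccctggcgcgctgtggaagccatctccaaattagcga
The capitals in Scn1a are its D-box, and Scn8a and Cacng2 have no capitals. Such a match is a description of the letters and not a sign of binding.

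Among the sodium channel alpha subunits, Scn8a, the main channel of mature initial segments and nodes, made up most of the pool. Its level was 59.6 ± 5.89 CPM per kb in the precipitates (SD, n = 18), which was 76.5% ± 4.9 of the summed level of the 10 alpha subunits. In the input it held 37.6%. Scn1a, known for its part in fast-spiking neurons, was next with 16.1 ± 3.51 CPM per kb, a share of 20.7% ± 4.68 against 42.8% in the input, so that it outranked Scn8a there and nowhere among the 18 precipitates. Scn2a (0.733 ± 0.174 CPM per kb), which precedes Scn8a at developing initial segments, and Scn9a (0.686 ± 0.168), best known from sensory and sympathetic neurons, did not differ from each other beyond their spread. The remaining alpha subunits had mean shares of at most 0.312% of the pool. Scn3a, mainly an embryonic channel, and Scn7a, a sodium sensor that is not gated by voltage, ranged from 1.8 to 4.05 and from 0.315 to 2.89 CPM over the libraries. The nociceptor channels Scn10a and Scn11a ranged from 0 to 2.43 and from 0 to 1.69 CPM.

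Of the sodium channel beta subunits, Scn4b, whose tail is linked to resurgent sodium current, stood at 154 ± 10.0 CPM per kb, Scn2b at 19.6 ± 1.56 and Scn3b at 1.45 ± 0.341, and the ranges of these 3 did not overlap over the 18 libraries. The summed level of the sodium channel alpha subunits was 77.7 ± 4.03 CPM per kb in the precipitates and 50.2 in the input.

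Of the calcium channel pores, Cacna1g, a low-threshold T-type channel, was highest with 13.9 ± 1.5 CPM per kb, which was 38.8% ± 4.57 of the alpha1 pool (input 19.3%). Cacna1a, the P/Q-type pore that drives release at the neuromuscular junction, followed with 5.23 ± 1.07 CPM per kb. The L-type Cacna1d (4.75 ± 0.352) and the T-type Cacna1h (4.31 ± 1.09) lay close to it, and these 3 were not separated beyond their spread. The N-type Cacna1b and the T-type Cacna1i were again alike in level (2.48 ± 0.243 and 2.46 ± 0.284 CPM per kb). The R-type Cacna1e and the L-type Cacna1c were lower still, at 1.59 ± 0.227 and 1.07 ± 0.189 CPM per kb, although with the longest transcript as length Cacna1e (2.65) stood above Cacna1b (2.51) and Cacna1i (2.46). Cacna1s, the L-type pore of skeletal muscle, was at or under 1.1 CPM in 17 libraries and at 3.93 CPM (46 counts) in ZT16 replicate 1. That library also had the highest summed level of 4 skeletal muscle markers (Acta1, Ckm, Myh4 and Tnnt3), 145 CPM where the other libraries held 0.985 to 83.6. The part of muscle RNA in the Cacna1s value was not tested.

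Each family of auxiliary calcium channel subunits had 1 leading member. Cacna2d3 held 81.9% ± 1.64 of the alpha2delta pool (20.7 ± 2.54 CPM per kb), against 37.6% in the input, where Cacna2d2 was the first with 41.8%. In the precipitates Cacna2d2 (2.42 ± 0.767) and Cacna2d1, the gabapentin target (2.1 ± 0.311), did not differ beyond their spread, and Cacna2d4 ranged from 0 to 1.62 CPM. Cacnb1, the beta subunit best known from skeletal muscle, held 76.2% ± 3.22 of the beta pool (35.3 ± 3.82 CPM per kb), whereas in the input Cacnb4, Cacnb1 and Cacnb3 held 34.5%, 31.7% and 27.1%. Cacnb3, Cacnb4 and Cacnb2 followed at 4.61 ± 1.25, 3.49 ± 0.487 and 2.84 ± 0.408 CPM per kb, with overlapping ranges. In the gamma family, Cacng7 led with 57.2% ± 5.04 of the pool (52 ± 13.5 CPM per kb) and 63.9% in the input. Cacng2, the AMPA receptor subunit stargazin, was at 16.6 ± 5.12 CPM per kb, with Cacng4, Cacng8, Cacng5 and Cacng3 below it in that order, from 6.96 ± 1.36 down to 2.63 ± 1.17. Cacng4, Cacng8 and Cacng5 were not separated beyond their spread. With the longest annotated transcript as length, the shares of Scn8a, Cacna2d3 and Cacnb1 became 77.2%, 87.6% and 72.2%, and each stayed the leading member. The order below them depended on the length: Cacnb2 went from 6.15% to 11.5% of the beta pool and passed Cacnb3 and Cacnb4, Cacng8 passed Cacng4, and Cacna2d1 passed Cacna2d2.

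**Figure D1:**
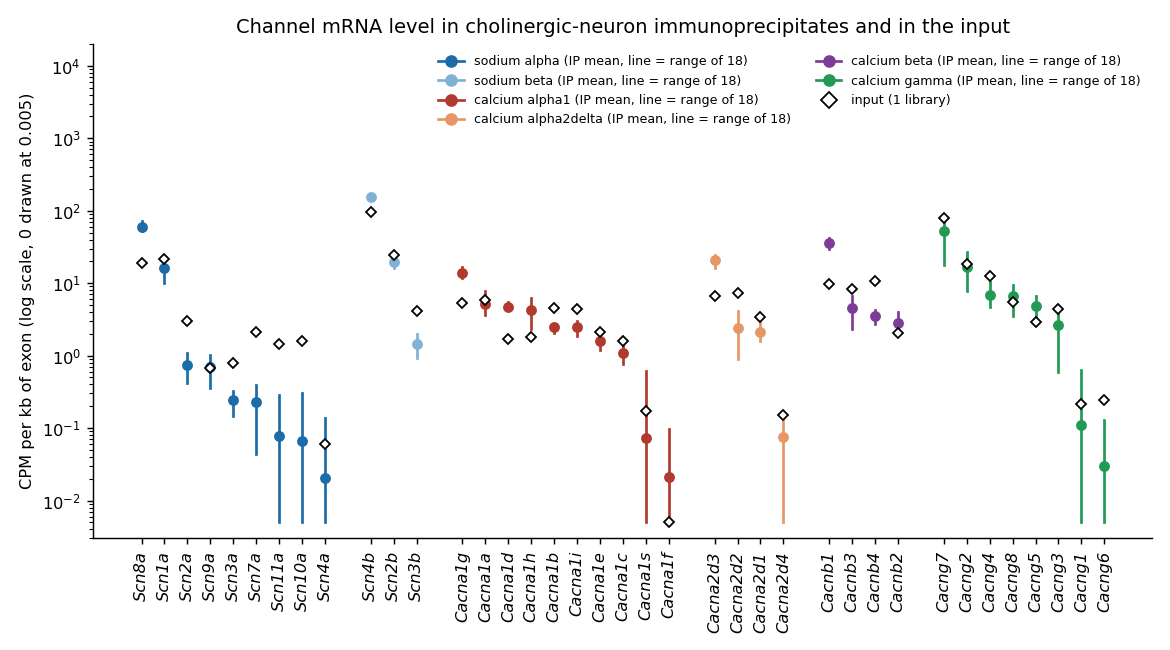
Level of 38 members in CPM per kb of exon on a log axis, by family, as the mean (filled point) and range (line) of 18 IP libraries and as the single input library (diamond). Scn4b (154 CPM per kb) and Scn8a (59.6) are the highest of those plotted, and in most families 1 or 2 members stand above the rest.

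Of the members, 4 were never above 1 CPM in a precipitate and were not tested over time: Scn4a, the skeletal muscle sodium channel (highest value 0.946 CPM), the retinal pore Cacna1f (0.884), the skeletal muscle subunit Cacng1 (0.788) and Cacng6 (0.254). Their total counts over the 18 libraries were 34, 56, 36 and 16. At such counts a change over the day was not detectable.

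Comparing the precipitates with the input asks which channels were favoured on cholinergic ribosomes. With only 1 input library there is no test, so a gene was called enriched or depleted when the mean differed by at least 2-fold and all 18 libraries lay on that side. Enriched members, 7 of 39, included Cacnb1, Cacna2d3, Scn8a, Cacna1d, Cacna1g and Cacna1h (13.7% of all genes compared were enriched). Depleted members, 9 of 39, included Scn10a, Scn11a, Scn7a, Scn2a, Scn3a, Scn3b, Cacna2d2 and Cacnb4 (23% of all genes). Both shares were near the background, and the median log2 ratio was -0.59 over the members and -0.10 over all genes.

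The 3 highest ratios among members with at least 30 input counts belonged to 3 different families. Cacnb1 was at 160.1 ± 17.3 CPM in the precipitates (SD, n = 18) and at 44.4 CPM in homogenate (Poisson 95% bounds 41.5 and 47.5), and the log2 ratio was 1.85. Cacna2d3 was at 181 ± 22.1 CPM against 57.2 CPM, a log2 ratio of 1.66. Scn8a was at 939 ± 92.8 CPM against 298 CPM, a log2 ratio of 1.66. Poisson bounds cover counting error of the 1 input library only. For these 3 genes all 18 precipitates lay above the input, and each was the leading member of its family. The T-type pores Cacna1g (1.39) and Cacna1h (1.24) and the L-type Cacna1d (1.47) were enriched too, and no gamma subunit was.

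Of the 9 depleted members, 6 were sodium channel alpha subunits, a family of 10 in which the median log2 ratio was -1.63. Scn10a was at 0.527 ± 0.695 CPM against 12.5 CPM in homogenate (Poisson 95% bounds 11 and 14.2), so that its log2 ratio was -4.57. Scn11a had a log2 ratio of -4.23 and Scn7a of -3.23. The first 2 are channels of pain-sensing neurons of the dorsal root ganglion. Of 5 sensory neuron markers, 4 were depleted too, and their summed level was 1.67 to 7.28 CPM in the precipitates against 27.9 CPM in the input. Scn10a was highest in ZT8 replicate 2 (2.43 CPM, 45 counts), the library with the lowest summed sensory marker level (1.67 CPM). Scn2a (-2.02) and Scn3a (-1.69) were depleted as well, and Scn1a (-0.42) was not called. Among the calcium channels the depleted members were Cacna2d2 (-1.59) and Cacnb4 (-1.61). None of the calcium channel pores was depleted with TMM scaling, the N-type Cacna1b (-0.85) being lower than the input in all 18 libraries but by less than 2-fold. Scaled by library totals instead of TMM, which moved the log2 ratio by a median of -0.33 over genes, 16 members were depleted, the pores Cacna1b and Cacna1i among them, and 5 enriched. With that scaling the median log2 ratio over all genes was -0.43. The share of all genes called was not computed for it, so these 2 counts are not read as a result about the members.

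**Figure D2:**
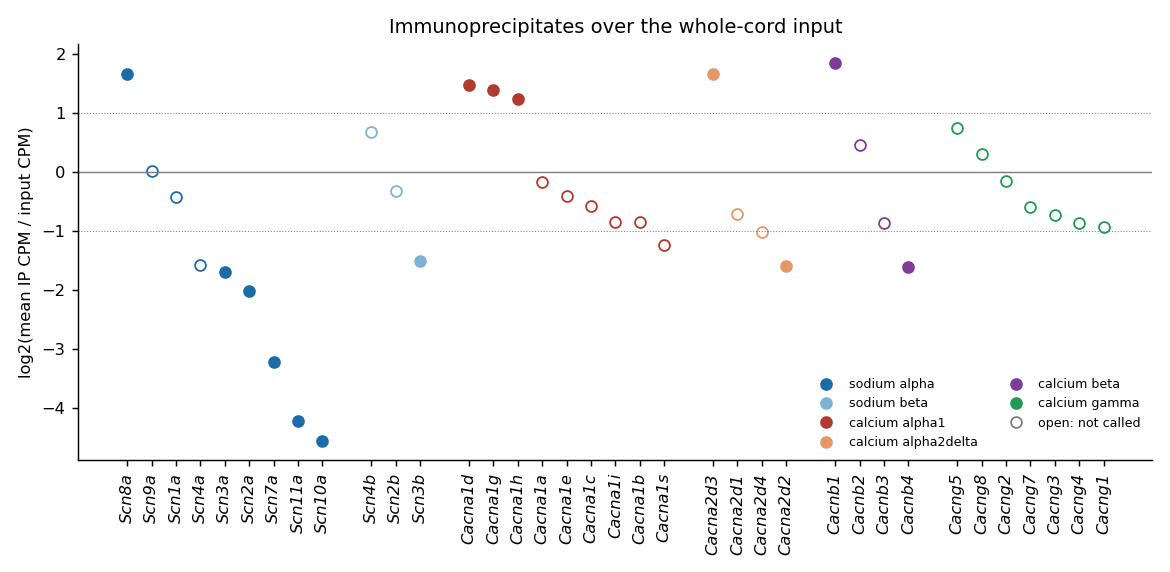
Log2 ratio of the mean CPM of 18 IP libraries to the CPM of the 1 input library for 36 members with input counts, by family. Filled points were called enriched or depleted (2-fold, dotted lines, with all 18 libraries on that side), and the sodium alpha subunits run from Scn8a at 1.66 down to Scn10a at -4.57.

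Next, the members were followed over the day. Fitting a 24-h cosine to each gene with edgeR's quasi-likelihood test called 3 of 36 members at a false discovery rate (FDR) of 0.05, against 6.24% of all 15572 genes. Scn8a and Cacna1g peaked in the light phase (3.33% of genes were called with such a peak), at ZT7.83 and ZT8.35, and Cacng2 in the dark phase (2.91% of genes), at ZT19.2. A test for any difference among the 6 time points called Scn8a (FDR 0.0262) and Cacng2 (FDR 0.0488), 2 of 36, where 6.74% of genes were called. JTK_Cycle, a rank test for rhythms used by the study and rebuilt here, called no member when adjusted over all genes, with 0.0385% of genes called. The study itself reports a far larger share of genes as rhythmic by JTK_Cycle at an adjusted P under 0.05. Why the shares differ was not tested. Adjusted within each gene alone, the rebuilt test called Scn8a, Cacna1g, Cacna1h, Cacna2d3, Cacnb3 and Cacng2, 6 of 36 against 15.8% of genes. Each of these counts lies near what the background share gives for 36 genes. The cosinor and time-point calls moved with single libraries: when each of the 18 was left out in turn, Scn8a was called by the cosinor in 9 fits and among time points in 12, Cacng2 in 7 and 5, and Cacna1g by the cosinor in 8. No member was called by the cosinor without ZT0 replicate 2, ZT4 replicate 2 or 3, ZT8 replicate 2 or 3, ZT12 replicate 1, ZT16 replicate 1 or 2 or ZT20 replicate 1, and 1 without ZT0 replicate 3. It called 5 without ZT12 replicate 3, 7 without ZT16 replicate 3 and 11 without ZT20 replicate 3. The test among time points called no member without ZT0 replicate 1 or 3, ZT4 replicate 2, ZT8 replicate 2 or 3 or ZT16 replicate 1, and 4, 11 and 12 without ZT20 replicate 3, ZT16 replicate 3 and ZT8 replicate 1. It called 1 without ZT0 replicate 2, ZT4 replicate 3, ZT12 replicate 2 or 3, ZT16 replicate 2 or ZT20 replicate 1 or 2. JTK_Cycle called 2 members without ZT16 replicate 3. The calls among all genes are not given beside these refits, so the member counts are not read as a result about the channels.

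Scn8a and Cacna1g were higher in the middle of the light phase. Scn8a stood at 828, 839.8 and 828 CPM (ZT0), 951, 1008 and 997 (ZT4) and 1003, 1128 and 1074 (ZT8) in replicates 1, 2 and 3. It then stood at 994, 984 and 916 CPM (ZT12), 831, 831 and 844 (ZT16) and 885, 919 and 848 (ZT20). The libraries of ZT4, ZT8 and ZT12 all lay above those of ZT0 and ZT16, ZT4 and ZT8 overlapped, and the replicates of ZT0 and of ZT16 lay close together. The fitted amplitude was 0.17 on the log2 scale (FDR 0.0373). Cacna1g stood at 129, 122 and 117 CPM (ZT0), 135, 146 and 167 (ZT4) and 152, 160.1 and 158 (ZT8). Its later values were 163, 139.8 and 137 CPM (ZT12), 129.8, 136 and 124 (ZT16) and 128, 128 and 128 (ZT20). All ZT8 libraries of Cacna1g lay above all those of ZT0, ZT16 and ZT20, and its amplitude was 0.17 (FDR 0.0409).

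Cacng2 had the opposite course, with a trough at ZT8. It stood at 114, 102 and 118 CPM (ZT0), 78.7, 63.8 and 66.8 (ZT4) and 78.1, 43 and 53.4 (ZT8). The later values were 70.7, 97.2 and 101 CPM (ZT12), 106, 146 and 71.7 (ZT16) and 111, 128 and 75.4 (ZT20). ZT4 and ZT8 lay below every ZT0 library, whereas ZT16 spread widely and its replicate 3 fell within the ZT8 range. The fitted amplitude was 0.45 (FDR 0.041). Cacng8, of the same family, stood at 21.8, 18 and 18.6 CPM (ZT0), 12.1, 11.1 and 14.3 (ZT4) and 13.6, 8.2 and 11.3 (ZT8). It then stood at 19.7, 14.2 and 17 CPM (ZT12), 17.9, 20.8 and 13.4 (ZT16) and 15.7, 19 and 12.5 (ZT20). Its ZT0 libraries did not overlap those of ZT4 or ZT8 (time-point FDR 0.065).

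The L-type pore Cacna1c was lowest at ZT4, its light-phase values being 25.6, 25.7 and 27.5 CPM (ZT0), 17.2, 18.5 and 15.9 (ZT4) and 21.8, 18.6 and 17.3 (ZT8). Its values were 26, 25.6 and 22.3 CPM (ZT12), 19.5, 27.8 and 24 (ZT16) and 26.6, 22.7 and 20.3 (ZT20) (time-point FDR 0.0554). ZT0 lay above ZT4 and ZT8 without overlap, and ZT16 and ZT20 overlapped both ZT0 and ZT8. Cacnb3, a neuronal beta subunit, stood at 22.6, 18.9 and 20.7 CPM (ZT0), 13.9, 13 and 14.3 (ZT4) and 18.9, 9.17 and 10.9 (ZT8). Its later values were 16.2, 17.6 and 25.9 CPM (ZT12), 24.4, 26.4 and 16.7 (ZT16) and 22, 18.5 and 18.8 (ZT20). Replicate 2 of ZT8 was the lowest of all 18 libraries for Cacnb3, and replicate 1 of ZT8 was level with replicate 2 of ZT0.

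Cacna2d3 stood at 205, 180.1 and 205 CPM (ZT0), 177, 150.4 and 162 (ZT4) and 168, 147 and 139 (ZT8). The later values were 169.6, 185 and 175 CPM (ZT12), 197, 213 and 179 (ZT16) and 207, 188 and 168 (ZT20). Every ZT8 library lay below every library of ZT0, ZT12 and ZT16, and ZT20 replicate 3 was level with ZT8 replicate 1 (cosinor FDR 0.05002, just above the threshold). Cacna1h, the T-type pore, stood at 56, 44.7 and 45.3 CPM (ZT0), 36.8, 27.9 and 28.9 (ZT4) and 42.1, 22.2 and 33.1 (ZT8). It then stood at 37.1, 46.9 and 45.8 CPM (ZT12), 57.5, 59.2 and 38 (ZT16) and 50.3, 43.5 and 32.9 (ZT20). Its ZT8 and ZT16 libraries overlapped, and replicate 2 of ZT8 was again the lowest of the 18.

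**Figure D3:**
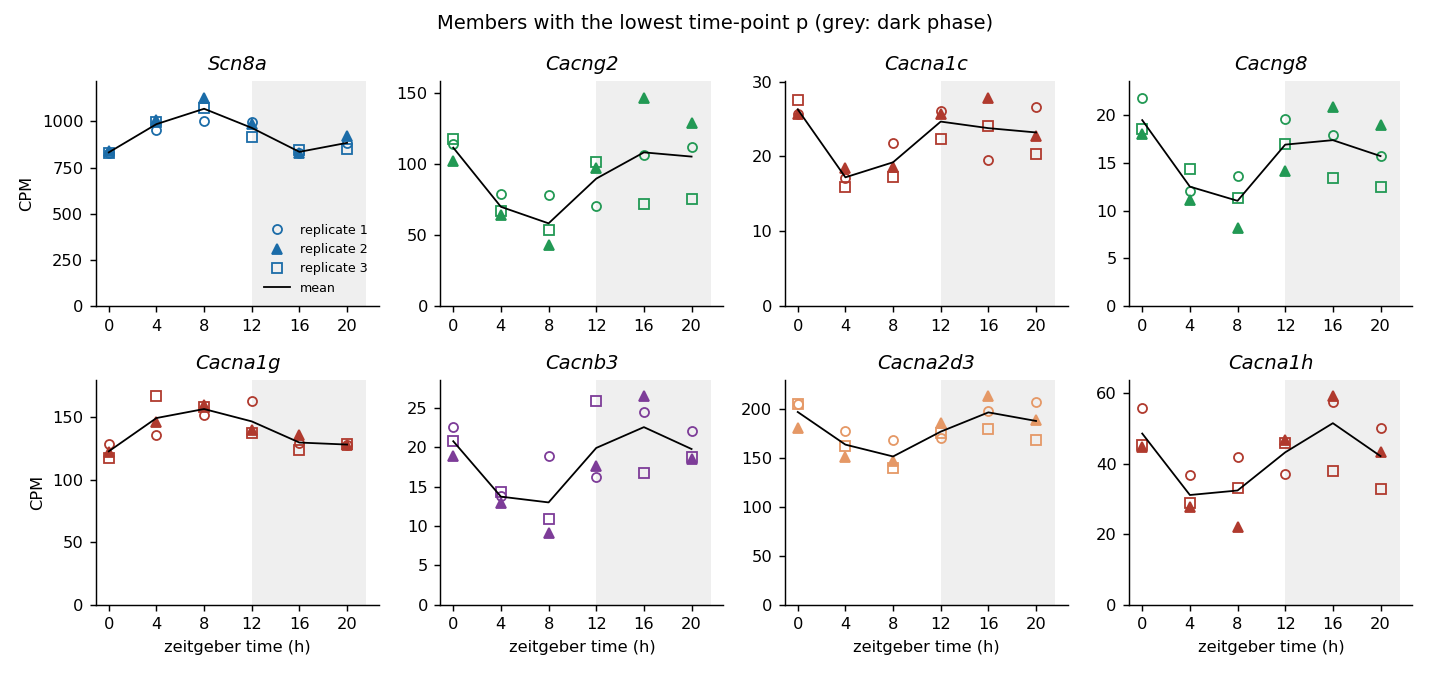
CPM in each of the 18 IP libraries by Zeitgeber time for the 8 members with the lowest time-point p, with the axis from 0, 1 symbol per replicate number and the mean as a line. Scn8a and Cacna1g are highest around ZT8, whereas the other 6 have their lowest means at ZT4 or ZT8.

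Single contrasts then asked which members differed between ZT8 and ZT0. This pair and ZT16 against ZT8 were chosen because earlier work on these same data had called many genes in them. Their FDRs do not account for that choice. At ZT8, 2 of 36 members were higher (8.95% of genes were) and 9 lower (9.02% of genes). The share of members that were lower was above that of all genes, with no test made of the set. Over the members the median log2 change was -0.09, and over all genes -0.003. The gamma family had 4 of its 6 tested members lower and none higher, with a median of -0.85: Cacng3 changed by -1.50 ± 0.44 (log2 ± SE, FDR 0.0237), Cacng2 by -0.94 ± 0.23 (FDR 0.0115), Cacng7 by -0.86 ± 0.26 (FDR 0.026) and Cacng8 by -0.83 ± 0.21 (FDR 0.0116). Cacng4 (0.47 ± 0.19, FDR 0.0854) and Cacng5 (-0.28 ± 0.22, FDR 0.403) did not pass. In CPM, Cacng7 ranged over 137 to 169.7 at ZT0 and 42.6 to 121 at ZT8, and Cacng3 over 8.97 to 11.2 and 1.62 to 7.42, with no overlap in either.

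In the alpha2delta family Cacna2d2 (-0.88 ± 0.28, FDR 0.0382) and Cacna2d3 (-0.38 ± 0.11, FDR 0.019) were lower, and of the beta subunits only Cacnb3 (-0.68 ± 0.23, FDR 0.0427) was. Calcium channel pores divided: Cacna1g was higher (0.35 ± 0.10, FDR 0.0166), Cacna1c lower (-0.45 ± 0.14, FDR 0.0347), and the other 7 tested did not pass. Those included Cacna1h (-0.59 ± 0.21, FDR 0.0554) and Cacna1a (-0.49 ± 0.18, FDR 0.0577), which lay near the threshold. The 2 leading sodium channel pores moved apart as well, with Scn8a higher (0.36 ± 0.073, FDR 0.00611) and Scn1a lower (-0.57 ± 0.18, FDR 0.0319). Scn1a ranged over 174 to 232 CPM at ZT0 and 111 to 163 at ZT8, without overlap. No beta subunit of the sodium channels passed, the value of Scn4b being 0.17 ± 0.085 (FDR 0.183).

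ZT16 against ZT8 shares the ZT8 libraries with the contrast above, so its values are given side by side and not as a second support. At ZT16, 11 of 36 members were higher (9.11% of genes were) and 1 lower (7.8% of genes), with a median log2 change of 0.18 over the members and 0.0047 over all genes. Scn8a was lower (-0.36 ± 0.073, FDR 0.00737), and Cacna1g did not pass (-0.27 ± 0.10, FDR 0.0552). The same 4 gamma subunits were higher, from 0.66 ± 0.21 (Cacng8, FDR 0.0328) to 1.45 ± 0.44 (Cacng3, FDR 0.0297), with Cacng2 at 0.90 ± 0.23 (FDR 0.0148) and Cacng7 at 0.78 ± 0.26 (FDR 0.0422). Also higher were Cacna2d2 (0.88 ± 0.29), Cacna2d3 (0.38 ± 0.11), Cacnb3 (0.80 ± 0.23), Cacna1h (0.67 ± 0.21) and Scn1a (0.64 ± 0.18), at an FDR of 0.02 to 0.0386. Scn2a (0.69 ± 0.23, FDR 0.0483) and Scn9a (0.86 ± 0.24, FDR 0.0192) rose here and had not passed between ZT8 and ZT0. That difference between the contrasts was not tested. In CPM, Scn9a ranged over 4.55 to 8.72 at ZT8 and 9.8 to 11.4 at ZT16, Scn2a over 5.86 to 8.84 and 8.79 to 13.6, and Cacna2d2 over 7.12 to 18 and 14.7 to 31.9. Scn9a did not overlap between the times, whereas Scn2a (narrowly) and Cacna2d2 did.

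The contrast of ZT20 with ZT8, a dark and a light time point, called 0 of 36 members with edgeR (0% of genes, lowest FDR of any gene 0.0557). At an unadjusted p under 0.05 there were 12 of 36, against 22.3% of genes. DESeq2 called 4 members at its FDR of 0.05 (Cacna1g, Cacng2, Scn8a and Scn9a), beside 1114 of all genes. The largest edgeR changes among the 12 were those of Cacng3 (0.97 ± 0.45, FDR 0.207) and Cacng2 (0.85 ± 0.23, FDR 0.0715), and Scn8a changed by -0.27 ± 0.073 (FDR 0.0705). Without ZT8 replicate 1 edgeR called 10 members in this contrast, and 1 without ZT16 replicate 3 or ZT20 replicate 3. The share of all genes is not given for these fits, so their counts are not read as a result about the members.

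**Figure D4:**
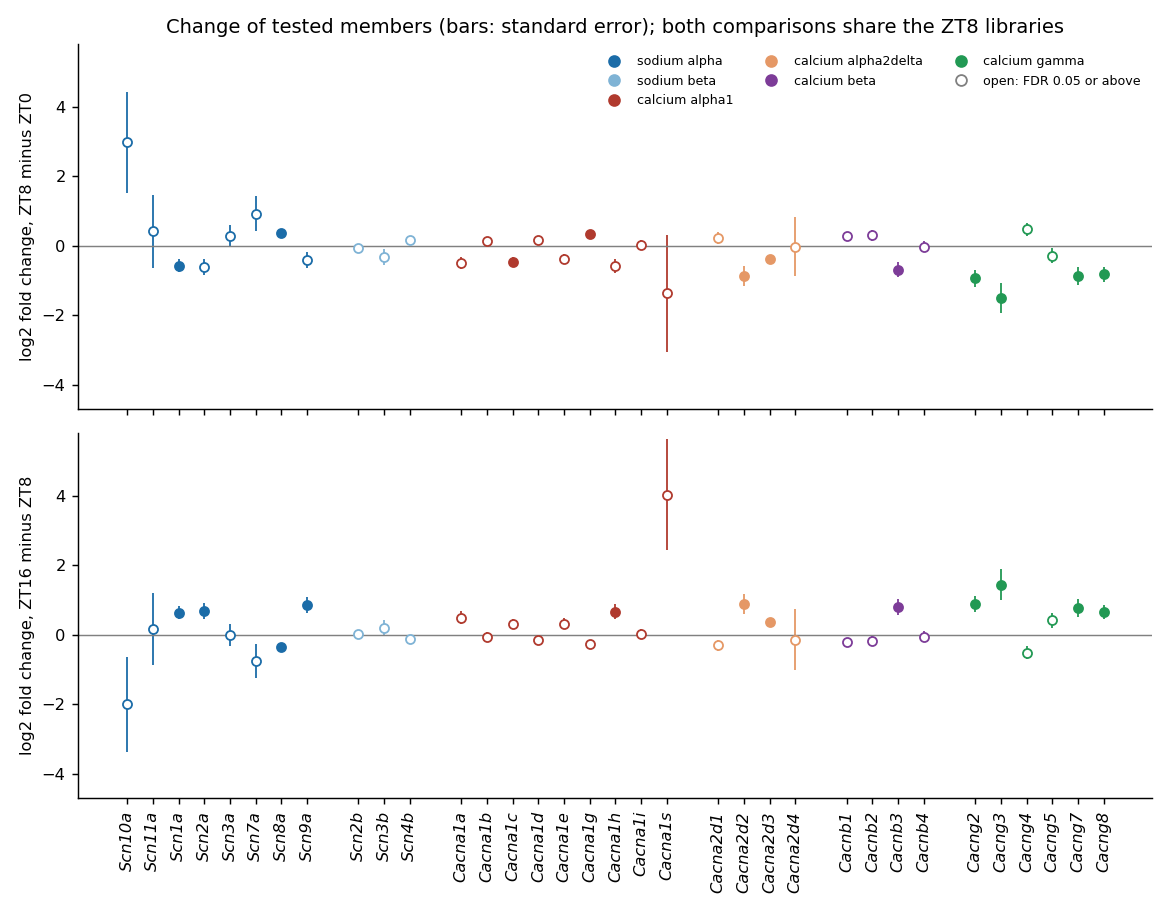
Log2 fold change with standard error of 34 tested members from ZT0 to ZT8 (upper panel) and from ZT8 to ZT16 (lower panel), filled where the FDR was under 0.05. The gamma subunits Cacng2, Cacng3, Cacng7 and Cacng8 are negative in the upper panel and positive in the lower, and Scn8a is the reverse. The wide bars belong to members at a few counts (Scn10a, Scn11a, Cacna1s and Cacna2d4).

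These calls rest on few libraries, ZT8 replicate 2 above all. Without it, none of the 11 calls for ZT8 against ZT0 and none of the 12 for ZT16 against ZT8 passed, though each kept its direction, and Cacng7 went from -0.86 to -0.56 in the first and from 0.78 to 0.47 in the second, where Cacna2d2 went from 0.88 to 0.59. Without ZT8 replicate 1 changes grew: Cacng3 went to -2.55 at ZT8 against ZT0 and to 2.49 at ZT16 against ZT8, Cacnb3 to -1.07 in the first and Cacng7 to 1.18 in the second. Without ZT8 replicate 2, 274 and 87 of all genes passed. The library was also at one end of the first principal component (42.6), beside ZT8 replicate 3 (29.7) and apart from ZT8 replicate 1 (5.03). That component was computed on genes with a mean log2 CPM above 3 and held 52.8% of their variance. For ZT8 against ZT0, leaving out ZT8 replicate 3, ZT0 replicate 1 or ZT0 replicate 3 gave 2, 1 and 3 member calls, and leaving out ZT8 replicate 1 gave 18. For ZT16 against ZT8, leaving out ZT8 replicate 3, ZT16 replicate 1 or ZT16 replicate 2 gave 1, 2 and 0. Shares of all genes are not given for these refits, so the counts are not read as a trait of the members. Scn8a passed between ZT8 and ZT0 in 17 of the 18 fits that each left out 1 library, all but the one without ZT8 replicate 2, and Cacng8 in 16. Scn2a passed between ZT16 and ZT8 in only 4 of the 18.

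Other measures of the same libraries are given beside these calls. Summed oligodendrocyte markers were 1819 to 2203 CPM at ZT0, 1731 to 1992 at ZT8 and 1930.3 to 2876 at ZT16, with overlap. Within that list Mbp changed by -0.46 ± 0.12 at ZT8 against ZT0 (edgeR FDR 0.0141) and by 0.54 ± 0.12 at ZT16 against ZT8 (FDR 0.00883). Mean Mbp was 753 CPM at ZT0 and 548 at ZT8, beside 2008 and 1850 for all 7 markers summed. The rest of the list together therefore did not fall from ZT0 to ZT8. Summed astrocyte markers (6 genes) were 165 to 185 CPM at ZT0 and 131 to 165 at ZT8, without overlap. Summed cholinergic markers were 4295 to 4768 CPM at ZT0 and 4229.8 to 4685 at ZT8, with overlap. Among the 7 cholinergic markers, Chat and the choline transporter Slc5a7 moved more than the sum. Chat changed by -1.74 ± 0.43 at ZT8 against ZT0 (FDR 0.0115) and by 1.77 ± 0.43 at ZT16 against ZT8 (FDR 0.0115). Slc5a7 changed by -0.64 ± 0.17 (FDR 0.0158) and 0.54 ± 0.17 (FDR 0.0367) in these contrasts. Their means were 56.1 and 306 CPM at ZT0 and 16.9 and 196 at ZT8, beside 4582 and 4403 for all 7 summed. The other markers of that list are not given singly. Summed inhibitory neuron markers (4 genes) were 321 to 338 CPM at ZT0 and 246 to 299 at ZT8, without overlap. Mbp, the astrocyte and inhibitory sums, Chat and Slc5a7 all had the direction of the channels that fell at ZT8. Mean sums of oligodendrocyte precursor, sensory neuron and endothelial markers fell too, with overlap. They were 19.3, 4.48 and 8.76 CPM at ZT0 and 13.4, 3.19 and 8.48 at ZT8. Excitatory neuron, microglia, skeletal muscle and erythrocyte sums went the other way. Their means were 56.5, 10.3, 16.5 and 268 CPM at ZT0 and 63.9, 11.8, 19.8 and 341 at ZT8, with overlap. Across all genes, those lower at ZT8 had a median transcript GC of 51.8% and those higher 50.0%, whereas for the members the medians were 54.6% and 54.4%. Median transcript length was 3445 bases for the genes that fell and 2561 for those that rose, and in the opposite order for the members, at 3695 and 9909.5 bases. The part of any of these in the channel values was not tested.

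Ratios of 2 members within a library do not depend on library scaling, and 5 such ratios were computed per kb as a description, with the pairs chosen after their values were seen and therefore no test. Scn1a over Scn8a was 0.345 ± 0.0519 (ZT0; SD, n = 3), 0.231 ± 0.0449 (ZT4), 0.183 ± 0.0455 (ZT8), 0.244 ± 0.0358 (ZT12), 0.361 ± 0.092 (ZT16) and 0.291 ± 0.0449 (ZT20), with 1.14 in the input. The ZT8 range (0.14 to 0.23) lay under those of ZT0 (0.293 to 0.397), ZT16 (0.26 to 0.439) and ZT20 (0.255 to 0.342), and all 18 libraries lay under the input. The P/Q-type Cacna1a over the L-type Cacna1d went from 1.3 ± 0.109 at ZT0 to 0.836 ± 0.142 at ZT8, against 3.42 in the input. Cacnb3 over Cacnb1 was 0.162 ± 0.0175 at ZT0 and 0.0834 ± 0.0334 at ZT8, and Cacna2d3 over Cacna2d1 10.8 ± 0.697 and 7.26 ± 1.23. Cacng7 over Cacng4 was 9.76 ± 1.43 at ZT0 and 4.18 ± 2.78 at ZT8, with replicates of ZT8 from 1.93 to 7.28. In each of the 5 ratios the ZT0 and ZT8 libraries did not overlap. Each pair, however, set a member with a lower mean at ZT8 than at ZT0 over one with a higher mean. The fall of all 5 ratios was thus fixed by the choice of pairs, and other pairs were not computed.

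**Figure D5:**
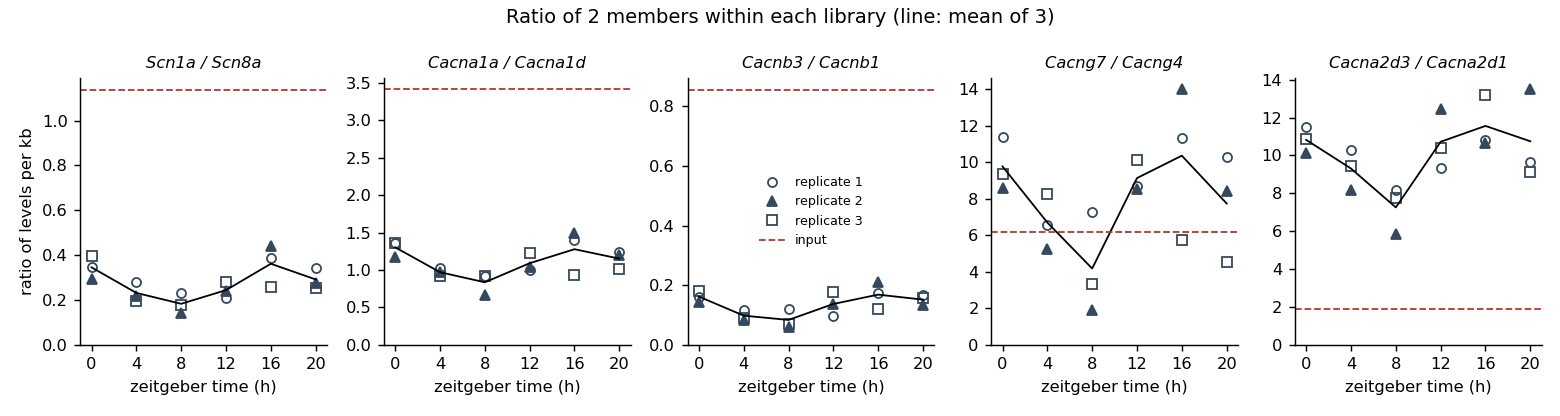
Ratio of the levels per kb of 2 members of 1 family in each IP library by Zeitgeber time, with the mean of 3 as a line and the input as a dashed line. All 5 means are lowest at ZT8, at 0.183 for Scn1a over Scn8a, the pairs having been chosen after their values were seen. In 4 of the 5 panels every library is on 1 side of the input.

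Sums over a family are given as levels per kb, without a test. The summed alpha1 level was 36.2 ± 1.82 CPM per kb at ZT0 and 35.9 ± 1.85 at ZT8, and the summed sodium alpha level 74.2 ± 3.34 and 82.6 ± 1.82. The gamma pool was 107 ± 8.86 at ZT0, 64.1 ± 21.4 at ZT8 and 102 ± 17.7 at ZT16, and the alpha2delta pool 28.2 ± 2.29, 21.7 ± 2.2 and 28 ± 3.57.

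Proteins that bind these channels were listed as well. None of 11 sodium channel partners was called by the cosinor or the time-point test, and none differed in the contrasts. The lowest time-point p among them belonged to the ubiquitin ligase Nedd4l (20.3 to 38.5 CPM, FDR 0.191), the nodal adhesion protein Nfasc (218 to 385, FDR 0.3) and the channel modulator Fgf14 (18.9 to 27, FDR 0.373). Of 17 calcium channel partners, 15 were tested and 1 was called by both tests. This was Stac2, an adaptor of L-type channels, with 50.0 ± 4.43 CPM at ZT0, 28.1 ± 9.15 at ZT8 and 47.4 ± 3.99 at ZT20 (time-point FDR 0.0448), a course like that of Cacng2 in sign. Gem, a small GTPase that inhibits calcium channels (25.1 to 42.7 CPM, FDR 0.0731), and the active zone protein Rims2 (25.9 to 39.1, FDR 0.0946) came next and did not pass. Between ZT8 and ZT0, 2 of the 15 were lower (Stac2 and the calmodulin-like Cabp1) and none higher. At ZT16 against ZT8, 2 were higher (Stac2 and Rims2) and 1 lower (Rem2, a small GTPase of the same family as Gem), Cabp1 and Rem2 being named after their values were seen. Among all genes 6.24% were called by the cosinor, 6.74% among time points, 9.02% lower and 8.95% higher at ZT8 against ZT0, and 9.11% higher and 7.8% lower at ZT16 against ZT8. Against the input, Gem had a log2 ratio of 3.25, and 5 of 17 calcium channel partners (Gem, Rem2, Cabp1, Calm2 and Calm3) and 2 of 11 sodium channel partners (Fgf11 and Sptbn4) were enriched, beside 13.7% of all genes. Stac2 (-1.11), Cachd1 (-2.39) and Fgf13 (-1.51) were depleted, beside 23% of all genes. Of 7 symbols listed for the sodium leak channel, with alternative names of a gene among them, 4 were in the table, and none was called. The pore Nalcn ranged from 77.9 to 107 CPM, and its companions Unc79 and Unc80 from 6.62 to 16.4 and from 164 to 254.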

How the data were processed

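PolyA RNA from 18 ribosome immunoprecipitates and from 1 pooled input was sequenced by the authors from libraries of the Illumina Stranded mRNA Prep kit. Per the labels and the methods, the authors aligned reads with STAR 2.7.5 to mm10 and estimated counts per gene with RSEM. The deposited table holds these RSEM expected counts, of which 1.90% to 3.68% per library were not whole, and they were rounded here. Values of 2 members counted among the 40 are not reported here. How RSEM split reads between similar members could not be checked.

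In R 4.3.3, edgeR 4.0.16 (limma 3.58.1) was run over the 18 immunoprecipitates with filterByExpr, TMM scaling and the quasi-likelihood test, with Benjamini-Hochberg adjustment over all 15572 genes: a 24-h cosine, an F test among the 6 time points and 3 contrasts. JTK_Cycle was rebuilt with periods of 20, 24 and 28 h on log2 CPM (prior count 2). The input, 1 library, was compared by ratio without a test, with input counts under 3 set to 3 as a floor. The fits were tested on simulated data. Exon lengths came from GENCODE M21, not the Ensembl release of the authors, and promoters from RefSeq. The IP libraries held 6302150 to 22406844 counts and the input 15239792, and precision is limited by this depth and by 3 libraries per time point, which the labels call biological replicates.

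The rule for members uses symbols alone, but the set and the gene lists were chosen with earlier results of these data known. So were the contrasts of ZT8 with ZT0 and of ZT16 with ZT8. The genes to be named were members among the 2 with the highest level per kb in each family, the 8 with the lowest time-point p, every called member, the 3 highest and 3 lowest input ratios, and the 3 partners per list with the lowest time-point p. Levels of other members are given to account for the whole set. Replicate numbers were checked as pairs: of 45 correlations of same-numbered libraries between time points (-0.151 to 0.176), 4 exceeded 0.1, so the numbers were not treated as pairing. Alternatives were other scalings, filters, DESeq2 1.42.0, a replicate block, leaving out libraries, other fold limits and, chosen after seeing the data, another gene length.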

Additional observations from a re-analysis of the deposited data

How the results depend on the processing

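The counts of called members moved with several choices, and their causes were not tested. With every gene of at least 1 count kept, the cosinor called 9 members, the test among time points 11 and the ZT20 to ZT8 contrast 6. The calls among all genes rose too, from 972, 1050 and 0 to 2349, 2767 and 1641. Of the 11 members from the test among time points, 1 (Cacng2) was called before, and Scn8a was lost. DESeq2 called 8, 10 and 4 in these same comparisons, beside 2312, 2502 and 1114 of all genes. JTK_Cycle adjusted within the gene alone called 6, beside 15.8% of genes. Against the input, 3 members were enriched at 3-fold, 15 were depleted at 1.5-fold and 16 with library totals as scaling. The share of all genes was not computed at these settings, so the counts are not read as a result about the members.

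Leaving out 1 library or 1 replicate number at a time gave 0 to 2 members for JTK_Cycle, 0 to 11 for the cosinor, 0 to 12 for the time-point test, 0 to 18 for ZT8 against ZT0, 0 to 17 for ZT16 against ZT8 and 0 to 10 for ZT20 against ZT8. The calls among all genes are not given beside these ranges, so they are not read as a result about the members. Without ZT8 replicate 2 no member passed in any of the 5 edgeR comparisons. With a replicate block, JTK_Cycle called 2 members and the time-point test 1, the cosinor again 3, ZT8 against ZT0 12, ZT16 against ZT8 10 and ZT20 against ZT8 0. Among all genes the block gave 355, 1004, 774, 2756, 2582 and 7 calls in that order. The replicate numbers share no more than a number, so a call lost under the block is not read as a weaker effect.

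Across 621 recomputed log2 changes of called members all kept their direction and 477 passed the threshold. These members had been picked as called, and the refits used the same libraries, many leaving out a library of neither time point. The kept direction was thus largely fixed in advance and is not read as a support. The share of Cacna2d3 in its family rose to 87.6% with the longest transcript as length, a choice made after seeing the data. With 3 libraries per time point and 1 input, differences of members at a few counts could not be resolved.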
